A study of Rattus norvegicus with 19 samples.

Results

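The cytosolic ribosomal proteins are the protein components of the 40S and 60S ribosomal subunits. Their genes were found on the arrays by symbol: every probe set annotated to exactly 1 gene whose symbol follows the Rpl or Rps pattern, including Rplp0 and Rpsa, was taken. This gave 53 of 31256 probe sets, which represent 45 genes. The first of 2 Affymetrix array types held 49 of these probe sets for 43 genes, and the second held 4 probe sets for 4 genes, with Rpl13a and Rpl24 on both. A further 34 ribosomal probe sets of the first array type and 4 of the second list several genes, often processed copies, and are summarised without names. Rplp1, Rplp2, Rps27 and Rpl22l1 have no probe set that names 1 gene alone and are not analysed here.

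The livers came from adult rats that received a single intraperitoneal injection after a night without food. PCN animals received 100 mg/kg of pregnenolone-16α-carbonitrile, a man-made steroid and ligand of the rodent pregnane X receptor, and controls received the corn oil vehicle. Livers were taken 8 h later in both groups, so that both were fasted and handled alike, and strain and sex are not given in the labels. The first array type had 5 PCN and 5 corn oil arrays, and the second had 5 PCN and 4 corn oil arrays, none for corn oil replicate 2. The study asked whether PCN acts on liver genes beyond drug metabolism.

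Ribosomal protein mRNAs are among the most abundant in a cell, and the products of nearly all of them are needed in equal numbers. In mammals most of these mRNAs begin with a cytosine and an unbroken run of pyrimidines, the terminal oligopyrimidine or TOP motif, which places their translation under the control of the nutrient-sensing kinase mTOR. Part of their control therefore lies in translation, which an mRNA array does not measure, and several of them serve as reference genes in expression studies because their mRNA levels vary little.

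Start regions were taken from RefSeq (rat assembly GRCr8), which held 40 of the 45 genes. Within 20 bases either side of the annotated start, on the sense strand alone, a run of at least 8 consecutive C or T bases was present in 26 of 40 ribosomal protein genes (65%), against 15.5% of all 33469 promoters. A C followed by 4 further pyrimidines exactly at the annotated start was present in 12 of 40 (30%), against 2.63% of all promoters. The windows of the 6 genes with the smallest p values, and of the stalk gene Rplp0, are shown so that these start runs can be seen beside the expression values. Each covers 40 bases before and 20 bases from the annotated start. Capitals mark the longest pyrimidine run within 20 bases of that start, where it reached 8 bases. In Rpl21 the run goes on in lower case before that limit, and in Rpl39 it ends at the limit.
Rpl35a, chr11:81235002-81235061, minus strand: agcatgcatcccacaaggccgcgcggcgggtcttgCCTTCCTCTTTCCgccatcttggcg
Rpl21, chr12:13386134-13386193, minus strand: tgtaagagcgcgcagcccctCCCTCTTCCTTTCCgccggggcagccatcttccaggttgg
Rpl22, chr5:168117921-168117980, plus strand: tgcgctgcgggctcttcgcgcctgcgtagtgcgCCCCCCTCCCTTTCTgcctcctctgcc
Rps28, chr7:15311314-15311373, minus strand: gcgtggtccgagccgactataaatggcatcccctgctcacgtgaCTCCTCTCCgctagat
Rpl39, chrX:121195877-121195936, minus strand: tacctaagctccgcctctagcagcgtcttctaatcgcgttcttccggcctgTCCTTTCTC
Rplp0, chr12:46718371-46718430, minus strand: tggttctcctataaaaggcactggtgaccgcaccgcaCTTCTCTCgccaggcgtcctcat
Rpl7l1, chr9:21695678-21695737, plus strand: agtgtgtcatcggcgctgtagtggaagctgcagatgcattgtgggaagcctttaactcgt
The run spans the annotated start in Rpl35a, Rpl22 and Rplp0, lies before it in Rpl21 and after it in Rps28 and Rpl39, and is missing from the Rpl7l1 window. Rpl39, like Rpl35a, Rpl22 and Rplp0, also has a C and 4 further pyrimidines exactly at the annotated start. A match is a description of these letters, not a mapped transcription start. Of the 41 genes tested on the first array type, the 24 with such a run had a median log2 fold change of -0.08 (range -0.19 to 0.08, 19 below 0). The 13 with shorter runs had a median of -0.02 (range -0.11 to 0.33, 9 below 0), the ranges overlap, and 4 tested genes had no start region.

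Among the deposited values, 10 arrays of the first type separated 361 of 11106 tested probe sets between PCN and corn oil at an adjusted p below 0.05 (3.25%, limma), 256 higher and 105 lower. On the second type 577 of 10693 were called (5.40%), 402 higher (3.76%) and 175 lower (1.64%). Over all tested probe sets, PCN replicate 5 of the second type correlated negatively with every other PCN array (r from -0.38 to -0.11, deviations from the mean of all arrays). Corn oil replicate 2 of the first type (r from -0.16 to 0.02 within its group), corn oil replicate 1 (r from -0.10 to 0.02) and PCN replicate 2 (r from -0.26 to 0.08) also had low correlations within their groups. Deviations from a mean over all arrays correlate slightly below 0 even for unrelated arrays. Low values alone therefore do not show that an array stood apart. Hepatocyte markers had a summed log2 level of 16.83 to 17.02 in PCN and 16.83 to 16.98 in corn oil livers. No marker of any other cell type was called by limma on either array type, though several differed by more than the ribosomal genes. Stellate cell and fibroblast markers had summed levels of 12.23 to 12.55 in PCN and 11.82 to 12.28 in corn oil livers. Col3a1, the brightest of them and so the largest part of that sum, differed by 0.43 without overlap (adjusted p = 0.0824, limma). Of the 7 markers 4 lay above 0, while Acta2, Lrat and Des differed by -0.14, -0.16 and -0.06, and Des by -0.19 on the second type. Neutrophil markers summed to 8.69 to 10.19 in PCN and 8.35 to 8.85 in corn oil livers, with Lcn2 at 0.70 and S100a9 at 0.58 (adjusted p = 0.153 for S100a9 and higher for Lcn2). The top of that sum came from PCN replicate 4, where Lcn2 read 9.93, against 8.01 to 8.54 in the other PCN arrays. Camp, the only neutrophil marker tested on the second type, differed by -0.09 (adjusted p = 0.379, limma). On the second type Cd163 differed by 0.40 and Lyve1 by 0.39 (adjusted p = 0.136 and 0.0670, limma). After brightness was subtracted, Cd163 differed by 0.20 and Lyve1 by 0.14 (adjusted p = 0.353 and 0.312, limma). The median of the second-type endothelial markers then went from 0.16 to -0.01. On the first type Lyve1 differed by -0.05 (adjusted p = 0.879, limma), and 1 of 4 endothelial markers lay above 0 (median -0.09). There 3 of 4 Kupffer cell and macrophage markers lay above 0 (median 0.04), and Cd14 differed by -0.34. Col3a1 and Hbb were called under 2 of 22 alternatives, Lyve1 under 3 of 21 and Cd163 under 1. The 2 red cell markers measured gave summed levels of 13.59 to 14.26 in PCN and 14.07 to 14.43 in corn oil livers. Both were lower after PCN, Hbb at -0.39 and Alas2 at -0.59 (adjusted p = 0.110 and 0.14, limma). The 2 lymphocyte markers tested, on the second type alone, were lower as well, with a median of -0.15 (-0.12 after brightness was subtracted). Their summed levels were 7.79 to 7.95 in PCN and 8.00 to 8.10 in corn oil livers, without overlap. Cd8a had the smaller p, with a difference of -0.15 (adjusted p = 0.147, limma). The part of blood or of other cell types in the ribosomal values was not tested. In whole liver, fewer cells of a type and less RNA per cell cannot be told apart.

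On the first array type none of the 41 ribosomal protein genes that passed the brightness filter was called, at 0 higher and 0 lower, against the 3.25% of all probe sets called (2.31% higher and 0.945% lower, limma, adjusted p below 0.05). The differences were small in size as well. Their log2 fold changes, PCN over corn oil, ran from -0.19 for Rpl35a to 0.33 for Rpl7l1, with a median of -0.05. The median over all tested probe sets was 0.00, and 1037 non-ribosomal probe sets of equal brightness had a median of -0.00. At an unadjusted p below 0.05 there were 4 ribosomal genes (9.76%), 1 higher and 3 lower, against 1964 (17.7%, 11.0% higher and 6.71% lower) of all probe sets and 266 (25.7%) of those of equal brightness (27.0% when each counts once for every ribosomal gene it matches). That count of 4 depended on single arrays. It was 0 when either PCN replicate 1 or corn oil replicate 2 was left out, 1 when corn oil replicate 3 was, and 2 when PCN replicate 3, PCN replicate 4 or corn oil replicate 5 was.

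Most of the small differences pointed down. The fold change was below 0 for 30 of 41 genes (73.2%), against 5551 of all 11106 probe sets and 527 of the 1037 of equal brightness (53.6% counted in that way). The genes share the same 10 arrays and varied together, so these directions are not 41 separate observations. With PCN replicate 2 left out 27 lay below 0, with corn oil replicate 2 left out 31 did, and for each of the other arrays between 28 and 34 did. Quantile normalization gave 33, and a common median for all arrays gave 31.

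**Figure D1:**
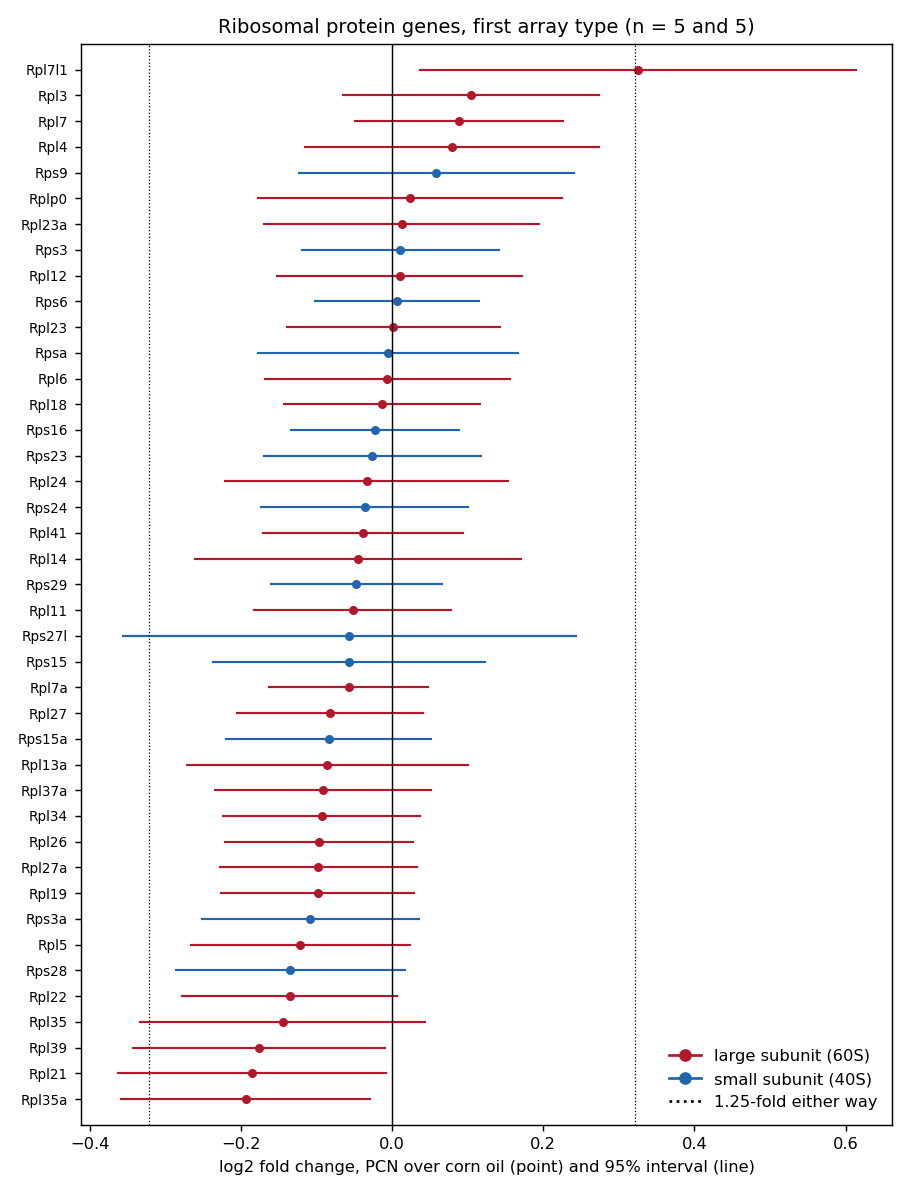
Log2 fold change, PCN over corn oil, of the 41 tested ribosomal protein genes on the first array type (points) with 95% intervals (lines), large subunit in red and small subunit in blue, 5 arrays per group. Values run from -0.19 to 0.33, 30 of 41 points lie below 0, and the dotted lines mark 1.25-fold either way.

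The values of ribosomal genes also varied less within groups. The 1037 probe sets of equal brightness had a median level of 11.92, below the 12.84 of the ribosomal genes, because dimmer members have neighbours of their own. Counting each neighbour once for every ribosomal gene it matches, a choice made after the data were seen, brought the median level to 12.84. The median standard deviation within groups was 0.09 for ribosomal genes, against 0.15 for these weighted neighbours. The median standard error of the log2 fold change was 0.07, against 0.09. The whole 95% interval of the fold change lay within 1.25-fold either way for 35 of 41 genes (85.4%), against 45.4% of the weighted neighbours and 37.9% without weights. A change of 1.5-fold lay outside the interval of 40 of 41 genes, the exception being Rpl7l1, whose upper bound was 1.53-fold. The median absolute log2 fold change was 0.06 for the ribosomal genes and 0.13 for the weighted neighbours. At equal brightness 56 of 1037 probe sets (5.40%) were called, 5.98% with weights. Brightness is a property of the probes as well as of the transcript, and it was used here only to match probe sets. Of the 41 genes 38 lay in the brightest of 10 equal bins of tested probe sets, where the median log2 fold change of all probe sets was -0.01.

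**Figure D2:**
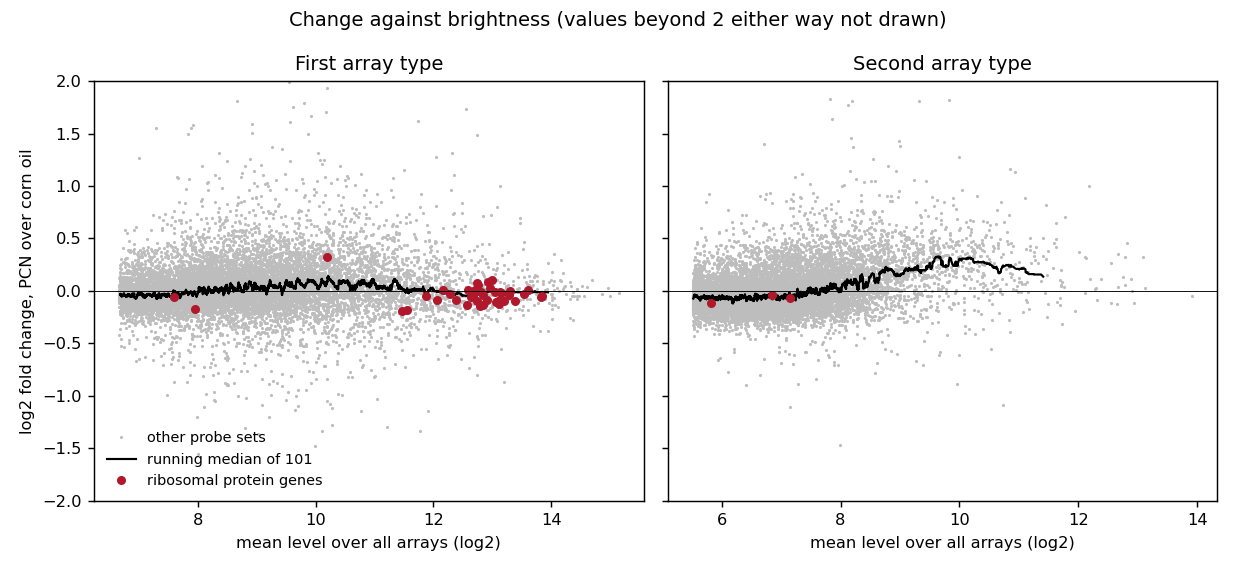
Log2 fold change, PCN over corn oil, against mean log2 level over all arrays, for ribosomal protein genes (red), other tested probe sets (grey) and the running median of the others (black line), for each array type. On the first type the red points gather at the bright end, around a median level of 12.84, and lie close to 0. On the second type the running median rises with brightness, to a median log2 fold change of 0.20 in the brightest of 10 equal bins.

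Of the 28 large subunit genes, 20 had values below 0, with a median log2 fold change of -0.05 (range -0.19 to 0.33). Rpl35a, a 60S protein affected in some patients with Diamond-Blackfan anaemia, a failure of red cell production in humans, had the smallest p. It read 11.29, 11.42, 11.43, 11.41 and 11.31 in PCN livers, against 11.55, 11.69, 11.62, 11.46 and 11.50 in corn oil livers (log2). The groups did not overlap, with the highest PCN array just under the lowest corn oil array. The log2 fold change was -0.19 ± 0.08 (SE; 95% interval -0.36 to -0.03; 0.874-fold), with an adjusted p of 0.205 (limma).

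Rpl21, another 60S protein, read 11.35, 11.32, 11.48, 11.49 and 11.62 in PCN livers, against 11.61, 11.77, 11.64, 11.58 and 11.59 in corn oil livers. PCN replicate 5 alone lay among the corn oil arrays. The difference was -0.19 ± 0.08 (adjusted p = 0.262, limma). Rpl22, an RNA-binding 60S protein, read 12.51, 12.38, 12.60, 12.54 and 12.45 in PCN livers, against 12.62, 12.72, 12.68, 12.59 and 12.56 in corn oil livers. Only PCN replicate 3 reached into the corn oil range, and the difference of -0.14 ± 0.07 had an adjusted p of 0.305 (limma). Rpl39, which lines the tunnel through which the growing peptide leaves the ribosome, read 7.90, 7.97, 7.74, 7.76 and 7.97 in PCN livers, against 7.95, 8.11, 8.10, 8.00 and 8.05 in corn oil livers. The groups met at corn oil replicate 1, and the difference was -0.18 ± 0.08 (adjusted p = 0.255, limma).

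**Figure D3:**
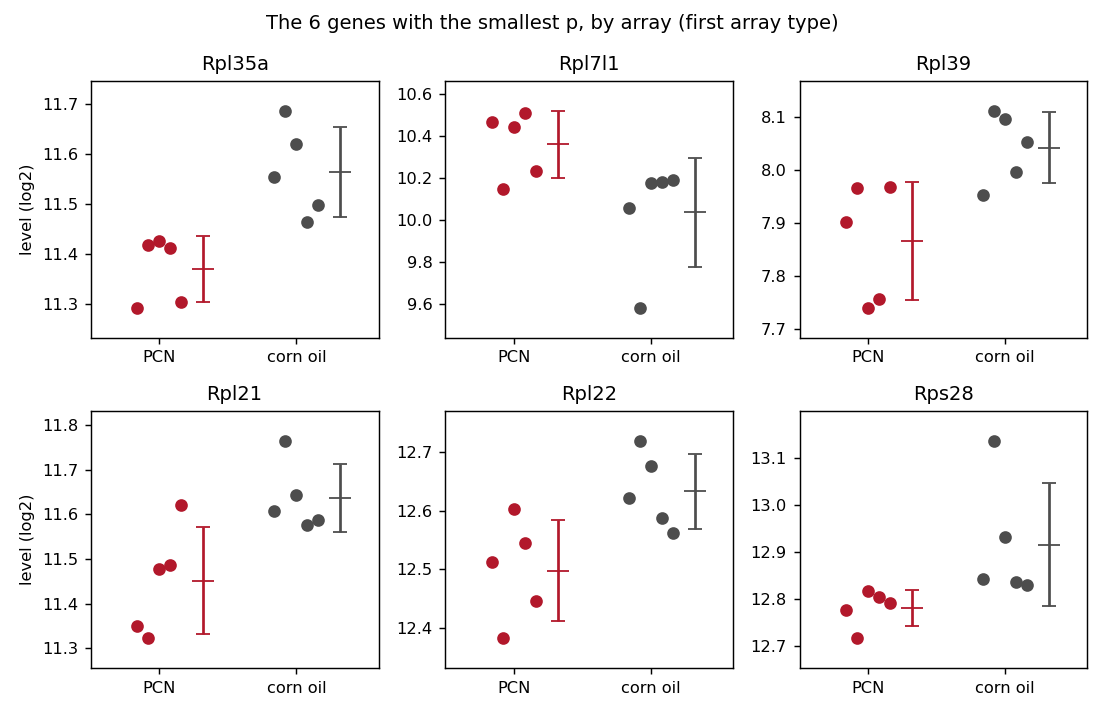
Log2 level on each array of the first type for the 6 ribosomal protein genes with the smallest p, PCN (red) left of corn oil (grey), each set of 5 arrays in replicate order with its mean and SD beside it. In Rpl35a and Rps28 the groups do not overlap, and in Rpl7l1 corn oil replicate 2 lies at 9.58, below the 4 other corn oil arrays.

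The 5S particle proteins Rpl5 and Rpl11 bind 5S rRNA and, in mammalian cells under ribosomal stress, also bind and hold back the p53 ligase Mdm2. Rpl5 read 13.02, 13.16, 12.95, 13.04 and 13.08 in PCN livers, against 13.08, 13.11, 13.35, 13.19 and 13.12 in corn oil livers. These ranges overlap, and the difference was -0.12 ± 0.07 (adjusted p = 0.381, limma). Rpl11 read 12.65, 12.69, 12.53, 12.69 and 12.67 in PCN livers, against 12.72, 12.65, 12.78, 12.66 and 12.69 in corn oil livers. Its difference was -0.05 ± 0.06 (adjusted p = 0.696, limma), and PCN replicate 3 was the low array. Rpl23, another Mdm2-binding 60S protein, differed by 0.00 ± 0.06 (95% interval -0.14 to 0.14, adjusted p = 0.993), and its sign turned under 6 of 22 alternatives.

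Rplp0 carries the acidic stalk that recruits translation factors. It read 13.05, 12.75, 13.12, 12.99 and 12.96 in PCN livers, against 13.01, 12.68, 13.09, 13.05 and 12.91 in corn oil livers. Replicate 2 was the low array in both groups, and the difference of 0.02 ± 0.09 (adjusted p = 0.917, limma) was far smaller than that spread. Rpl3, which reaches towards the peptidyl transferase centre, differed by 0.10 ± 0.08 (adjusted p = 0.532), and Rpl4, which lines the exit tunnel, by 0.08 ± 0.09.

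Of the 13 small subunit genes, 10 had values below 0, with a median of -0.04 (range -0.13 to 0.06). Rps28, a 40S protein, read 12.78, 12.72, 12.82, 12.80 and 12.79 in PCN livers, against 12.84, 13.14, 12.93, 12.84 and 12.83 in corn oil livers. The groups did not overlap, though 3 corn oil arrays lay just above the highest PCN array. The difference was -0.13 ± 0.07 (0.911-fold, adjusted p = 0.350, limma). Rpl35a and Rps28 were the 2 of 41 ribosomal genes without overlap (4.88%), both lower after PCN, against 6.04% of all probe sets (3.99% higher and 2.05% lower) and 10.2% at equal brightness.

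Rps6, the 40S protein that S6 kinase phosphorylates when mTOR is active, was among the steadiest. It read 13.55, 13.55, 13.64, 13.69 and 13.61 in PCN livers, against 13.63, 13.55, 13.66, 13.61 and 13.55 in corn oil livers. The ranges nearly coincide, and the difference was 0.01 ± 0.05 (95% interval -0.10 to 0.11, adjusted p = 0.958, limma). Rpsa, the 40S protein also known as the laminin receptor, read 13.13, 12.93, 13.25, 13.23 and 13.08 in PCN livers, against 13.15, 12.94, 13.29, 13.13 and 13.13 in corn oil livers. As for Rplp0, replicate 2 was the lowest in each group, and the difference was -0.01 ± 0.08 (adjusted p = 0.976, limma). A pair of dimmer Rpsa probe sets each differed by -0.12 (adjusted p = 0.566 and 0.468). In both of these, corn oil replicate 2 was instead the highest corn oil array, at 12.42 and 10.94, so that probe sets of 1 gene disagreed about this array.

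Rpl7l1, a paralogue of Rpl7, had the largest positive value of the 41. It read 10.47, 10.15, 10.45, 10.51 and 10.24 in PCN livers, against 10.06, 9.58, 10.18, 10.18 and 10.19 in corn oil livers. PCN replicate 2 lay within the corn oil range, and the difference was 0.33 ± 0.13 (1.25-fold, 95% interval 1.03 to 1.53, adjusted p = 0.223, limma). Without corn oil replicate 2 it was 0.21 (adjusted p = 0.266). A dimmer Rpl7l1 probe set differed by 0.21 ± 0.11 (adjusted p = 0.341), and Rpl7 itself by 0.09 ± 0.06 (adjusted p = 0.512). A dim Rpl7 probe set, with a mean of 6.87, differed by 0.24 ± 0.12 (adjusted p = 0.316).

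Rps27l, a paralogue of Rps27 that p53 induces in human cells, read 7.42, 7.92, 7.29, 7.74 and 7.49 in PCN livers, against 7.68, 7.95, 7.66, 7.54 and 7.32 in corn oil livers. The ranges nearly coincide, and the difference was -0.06 ± 0.14 (adjusted p = 0.864, limma). Rpl3l, the muscle form of Rpl3, had a mean of 5.64 and lay below the brightness filter at 6.67, as did the single-gene probe set of Rpl30 (5.89) and a second one of Rps24 (5.70). With the paralogues Rpl7l1 and Rps27l set aside, the other 39 genes ran from -0.19 to 0.10, and the whole interval of all 39 lay within 1.5-fold.

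The tested genes not named so far had log2 fold changes between -0.14 for Rpl35, at which the signal recognition particle docks, and 0.06 for Rps9. Positive values among them were those of Rps9, Rps3, Rpl12 and Rpl23a. The 34 probe sets that list several genes gave a like picture. Limma called 0 of them (3 at an unadjusted p below 0.05, all lower, and 2 without overlap, also lower), their log2 fold changes ran from -0.25 to 0.11 with a median of -0.07, and 29 lay below 0 (85.3%). The shares of 8.82% at that p and 5.88% without overlap stand beside 17.7% and 6.04% of all probe sets (6.71% and 2.05% lower). None of them lists the symbol of a gene among the 41. After brightness was subtracted, 1 of the 34 was called, lower (-0.34, adjusted p = 0.0350, limma), against 178 of all 11106 probe sets called lower on that scale.

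The mean over the 41 genes was read on each array. It was 12.49, 12.43, 12.53, 12.57 and 12.51 in PCN livers, against 12.55, 12.54, 12.62, 12.53 and 12.51 in corn oil livers (12.51 ± 0.05 and 12.55 ± 0.04, SD, n = 5 each). PCN replicate 2 was the lowest array and corn oil replicate 3 the highest, and the groups overlapped. After the median of the 100 probe sets nearest in brightness was subtracted on the same array, the mean was -0.00, -0.04, -0.02, 0.06 and -0.05 in PCN livers, against -0.01, 0.05, 0.09, 0.02 and 0.01 in corn oil livers. The overlap remained, with PCN replicate 4 above 4 of the 5 corn oil arrays. On this scale the median log2 fold change over the 41 genes was -0.06, and 29 lay below 0.

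**Figure D4:**
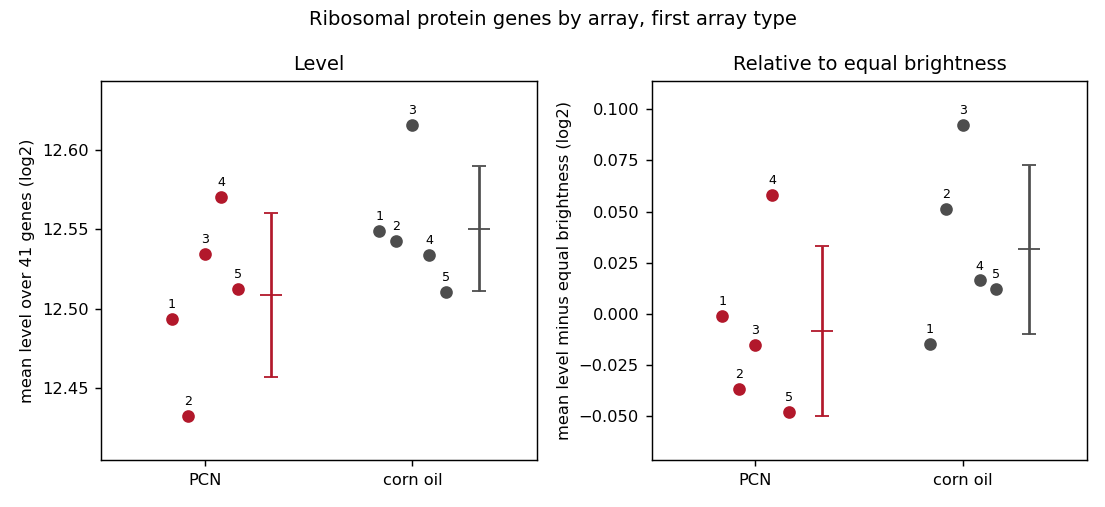
Mean log2 level of the 41 ribosomal protein genes on each array of the first type (left), and the same after subtraction of probe sets of equal brightness (right), PCN (red) left of corn oil (grey), with replicate numbers and the mean and SD of each group. The groups overlap in both panels, PCN replicate 2 is the lowest at left, and corn oil replicate 3 is the highest in both.

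Single arrays carried much of the spread. PCN replicate 2 was the lowest of all 10 arrays for 21 of 41 genes. Corn oil replicate 2 was the highest of all 10 for 15 genes, among them Rpl35a, Rpl21, Rpl22, Rpl39 and Rps28, and the lowest for 7, namely Rpl14, Rpl4, Rpl6, Rpl7, Rpl7l1, Rplp0 and Rps9. Corn oil replicate 3 was the highest for 12. Across the 10 arrays a gene's levels spanned between 0.14 (Rps16) and 0.93 (Rpl7l1), with a median span of 0.34 on the log2 scale. After group means were removed, the 820 pairs of genes had a median correlation of 0.25 over these 10 arrays (67.8% positive), and of 0.15 (61.2% positive) after brightness was subtracted. All pairs share arrays and any array-wide effect.

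On the second array type 3 of 4 genes passed the brightness filter, and Rpl28, with a mean of 4.20, did not. Limma called 0 of 3, and 0 at an unadjusted p below 0.05, where 5.40% and 27.3% of all probe sets were. Rpl13a, which joins a complex that silences inflammatory mRNAs in human monocytes, read 7.16, 7.15, 7.16, 6.92 and 7.17 in PCN livers, against 7.19, 7.15, 7.10 and 7.29 in corn oil livers. PCN replicate 4 was the low array. The difference was -0.07 ± 0.07 (adjusted p = 0.557), against -0.02 with that array left out and -0.03 with corn oil replicate 5 left out, and on the first array type it was -0.09 ± 0.09 (adjusted p = 0.649). Rpl24, a 60S protein at the face between the subunits, read 5.74, 5.95, 5.71, 5.80 and 5.69 in PCN livers, against 5.99, 5.93, 5.81 and 5.84 in corn oil livers. The ranges overlap through PCN replicate 2, and the difference was -0.11 ± 0.07 (adjusted p = 0.296), against -0.03 ± 0.09 (adjusted p = 0.871) on the first type. After brightness was subtracted the second-type difference of Rpl24 was -0.06 (adjusted p = 0.654, limma). The second-type probe sets of Rpl13a and Rpl24 are far dimmer, with means of 7.14 and 5.83, against 12.05 and 12.28 on the first type. Rpl39l1, a paralogue of Rpl39, read 6.56, 6.67, 6.77, 7.35 and 6.80 in PCN livers, against 7.09, 6.81, 6.75 and 6.83 in corn oil livers. PCN replicate 4 was the highest and PCN replicate 1 the lowest of all its arrays, and the difference was -0.04 ± 0.14 (adjusted p = 0.875).

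Genes that build, regulate or serve the ribosome were set beside its proteins. Of 41 ribosome biogenesis genes on the first array type, limma called 0 in either direction, 31 had values above 0 and the median log2 fold change was 0.11. After brightness was subtracted that median was 0.08. Tsr1, an assembly factor of the 40S subunit, had the smallest p of that list, with 0.33 ± 0.11 (adjusted p = 0.123). On the second type 1 of 26 was called, higher, where 3.76% of all probe sets were, so that 1 call is near the background. There 20 were above 0 and the median was 0.13, or 0.11 after brightness was subtracted. The called gene was Imp4, part of the particle that processes the 18S rRNA precursor. It read 7.45, 7.17, 7.40, 7.34 and 7.11 in PCN livers, against 6.73, 6.93, 7.04 and 7.03 in corn oil livers, without overlap. The rise was 1.28-fold (0.36 ± 0.09, adjusted p = 0.0423, limma). It was called under 10 of 21 alternatives, lost without each array but PCN replicate 5 (adjusted p up to 0.121). It was also lost with the replicate number as a block (0.0970), with no filter (0.0522) and in an unmoderated test (0.118), and the Imp4 probe set of the first type differed by 0.03 ± 0.09 (adjusted p = 0.879).

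**Figure D5:**
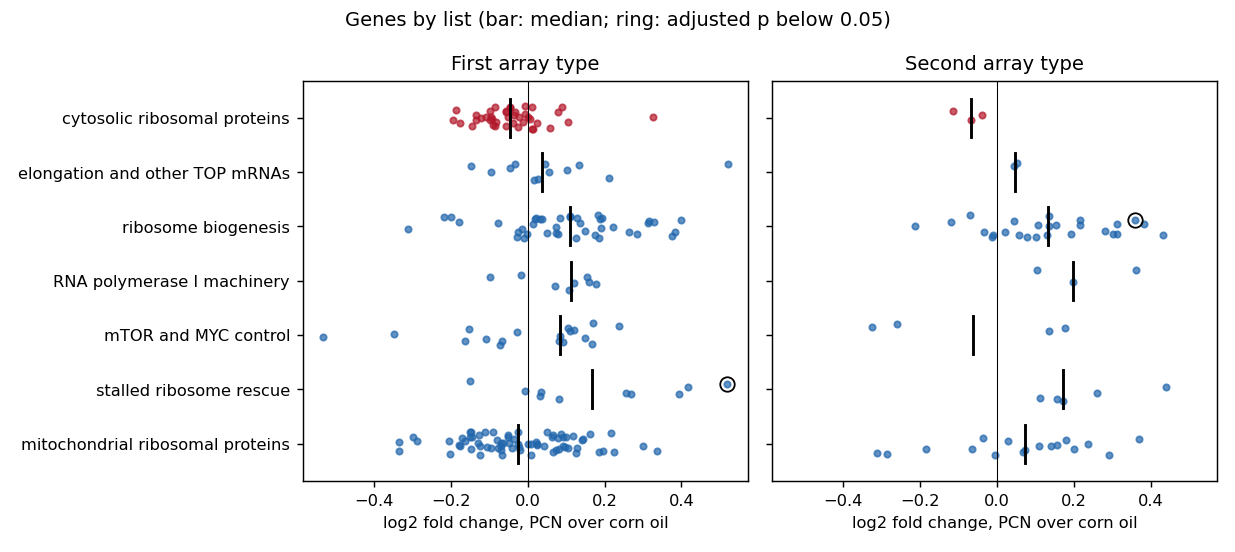
Log2 fold change, PCN over corn oil, of each tested gene of the cytosolic ribosomal proteins (red) and 6 related lists (blue), on each array type, with bars at medians and rings around genes with an adjusted p below 0.05. The ribosomal proteins run from -0.19 to 0.33 on the first type, and rings mark Etf1 on the first type and Imp4 on the second.

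The RNA polymerase I list, which makes rRNA, had 0 of 8 genes called on the first type, with 6 above 0 and a median of 0.11. Its smallest p was that of Taf1c (0.15 ± 0.09, adjusted p = 0.439). On the second type 0 of 3 were called, and Taf1d differed by 0.36 ± 0.12 (adjusted p = 0.083, limma). Of 12 genes of elongation factors and other mRNAs classed as TOP mRNAs, whose start regions were not examined here, 0 were called, and the median was 0.04. There Hnrnpa1, an RNA-binding protein, differed by 0.52 ± 0.20 (adjusted p = 0.208), with overlapping groups. Of 18 genes of mTOR and MYC control 0 were called, with a median of 0.08 (0.02 after brightness was subtracted). On the second type 0 of 4 were called, with a median of -0.06. Sesn1 differed by -0.53 on the first type and -0.325 on the second (adjusted p = 0.13 and 0.0640, limma), with overlapping groups. The second-type value was called under 2 of 21 alternatives. Eif4ebp2, an inhibitor of cap-dependent translation that mTOR switches off, read 10.54, 10.60, 10.93, 10.57 and 10.70 in PCN livers, against 10.99, 11.32, 10.96, 10.88 and 10.94 in corn oil livers. Only PCN replicate 3 reached the corn oil range, and the difference was -0.35 ± 0.11 (adjusted p = 0.114, limma). It was called under 2 of 22 alternatives, at -0.43 after brightness was subtracted (adjusted p = 0.0288) and again after quantile normalization. Mitochondrial ribosomal proteins had 0 of 71 called, 32 above 0 and a median of -0.03 (-0.09 after brightness was subtracted). Mrpl49 had the smallest p (0.30 ± 0.08, adjusted p = 0.0659, limma). On the second type 0 of 17 were called. There Mrpl53 differed by 0.37 ± 0.11 (adjusted p = 0.0676, limma), against 0.10 on the first type.

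In the list of factors that rescue and recycle stalled ribosomes, 1 of 10 was called, higher, where 2.31% of all probe sets of the first type were. Of the 10, 8 were above 0, with a median of 0.17 (0.09 after brightness was subtracted). The called gene was Etf1, the release factor that reads stop codons and ends translation. Etf1 read 10.80, 11.02, 11.03, 10.98 and 10.87 in PCN livers, against 10.13, 10.70, 10.52, 10.34 and 10.41 in corn oil livers, without overlap. The rise was 1.43-fold (0.52 ± 0.11, adjusted p = 0.0279, limma). The call was lost after quantile normalization (0.0591), in an unmoderated test (0.0741), and when 1 of 4 arrays was left out, namely PCN replicate 3 (0.0663), PCN replicate 4 (0.0689), corn oil replicate 4 (0.0791) or corn oil replicate 5 (0.0584). Abce1, of the same list, differed by 0.42 (adjusted p = 0.0956, limma). After brightness was subtracted Abce1 was called, higher (0.39, adjusted p = 0.0377, limma), where 2.40% of all probe sets were. On the second type 0 of 5 genes of this list were called, and all 5 lay above 0, with a median of 0.17. After brightness was subtracted that median was 0.16, Ltn1 went from 0.16 to -0.01 and Tcf25 from 0.44 to 0.19. The second-type Hbs1l probe set differed by 0.26 ± 0.07 without overlap (adjusted p = 0.0547, limma) and was called under 6 of 21 alternatives. On the first type Hbs1l differed by 0.08 (adjusted p = 0.701, limma). All 10 probe sets of the list on the first type share the arrays of the ribosomal proteins, and the difference between the lists was not tested.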

How the data were processed

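Liver RNA of PCN and corn oil rats was hybridised to 2 Affymetrix array types. The deposited values are log2 expression levels per probe set, processed by the authors before deposit. MAS5, named without a version in the submitters' processing notes, gives linear signals, and the normalization is not given in the sources used here. Base 2 was inferred, because the highest value (15.2) exceeds the natural log of the largest 16-bit reading (11.1) and lies below its binary log (16).

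On either array type 57 control probe sets were left out, and those with a mean under the 30th percentile (6.67 and 5.51) as well, which left 11106 and 10693. Each array type was fitted alone with limma 3.58.1 in R 4.3.3, by treatment, with an intensity trend, two-sided, and Benjamini-Hochberg adjustment over all tested probe sets at 0.05. The brightest single-gene probe set represented a gene. Of the 15923 and 15333 probe sets, 12789 and 7570 had 1 gene, 312 and 100 several, and 2822 and 7663 none in GEO's platform annotation, with symbols updated through RefSeq (43 of 45 ribosomal genes matched). Brightness was matched by the 100 nearest non-ribosomal probe sets.

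Named were the 6 genes with the smallest p on each type, Rplp0, Rpl5, Rpl11, Rpl23, Rps6, Rpsa and paralogue pairs, and of each other list up to 2 called genes or the 1 with the smallest p. Rpl4, Rpl35, Rps9 and others beyond this rule were chosen after their values were seen. The members and lists were chosen with earlier results of these data known. The labels call the replicates biological. Arrays have no depth, so their number limits precision. The fit was tested on simulated data. Alternatives changed the filter, scaling, block, variances, weights, gene summary and arrays included.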

Additional observations from a re-analysis of the deposited data

Results flagged for a closer look

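Among 88 sets of 4 or 5 arrays checked for a single distant array, 4 had one by Dixon's criterion, and with 88 sets some are flagged by chance alone. On the first array type, Rpl7l1 read 9.58 in corn oil replicate 2, while the other corn oil arrays read 10.06 to 10.19. Eif4ebp2 read 11.32 in the same array, while the others of its group read 10.88 to 10.99. Rpl11 read 12.53 in PCN replicate 3 of the first type, against 12.65 to 12.69 in the other PCN arrays. Rpl13a read 6.92 in PCN replicate 4 of the second type, against 7.15 to 7.17 in the other PCN arrays.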

How the results depend on the processing

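No ribosomal protein gene was called higher or lower under any alternative on either array type. The smallest adjusted p over the alternatives was 0.0890 on the first type (Rpl21, quantile normalization) and 0.176 on the second (Rpl24, without PCN replicate 2). The median log2 fold change relative to equal brightness was -0.06 on the first type and -0.05 on the second, and ran from -0.07 to -0.03 and from -0.07 to -0.02 when single arrays were left out. Over 391 values of named ribosomal genes, 27 had a turned sign, in 6 genes whose values lay near 0 (Rpl23, Rpl39l1, Rplp0, Rps27l, Rps6 and Rpsa). Calls over all probe sets moved far more. Without single arrays they ran from 107 to 343 higher and from 43 to 106 lower on the first type, and from 69 to 905 higher and from 15 to 572 lower on the second, with the highest counts there without PCN replicate 5. Quantile normalization gave 247 higher and 181 lower on the first type, and a common median gave 518 higher and 72 lower on the second. The unmoderated test gave 77 and 27 on the first and 25 and 21 on the second, and array weights gave 768 and 283, and 868 and 607. The cause of these shifts was not tested. The deviations of same-numbered arrays correlated at 0.21, -0.15, 0.28, -0.30 and 0.06 on the first type and between 0.02 and 0.20 on the second. Whether such arrays share more than a number is not given in the labels, and these correlations cannot decide it. With the replicate number as a block, 0 ribosomal genes were called on either type, the median relative fold change was -0.06 on the first, and calls over all probe sets were 177 higher and 62 lower, and 163 and 40. Brightness limits what can be read for Rpl3l, Rpl28 and Rpl30, which were too dim to test.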
